A study of Mus musculus with 45 samples.

Results

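Plasma cells grown from mouse splenic B cells for 10 days after activation through a Toll-like receptor (TLR) were compared with plasma cells of the same age in culture that had been activated through the antigen receptor (BCR). The 6 libraries were chosen by their labels alone, as the 3 wild type TLR and the 3 wild type BCR libraries of day 10, out of 45 RNA-seq libraries in the series. All 6 came from B2 cells of 7-week-old male mice, and nothing in the labels says whether the 3 replicates of a group were separate animals, so that p-values may measure only the spread between cultures. Both groups started on irradiated L cells (a mouse fibroblast line) that express CD40L, with 50 ng/mL of IL-4 and 50 ng/mL of IL-5. The TLR group also received LPS, the bacterial ligand of TLR4, at 5 µg/mL. The BCR group received F(ab')2 antibody to IgM and IgG at 12 µg/mL in place of LPS. B cells of both groups were taken off the feeder cells on day 2. They were reseeded on day 4 with the survival factors IL-6 (10 ng/mL) and APRIL (100 ng/mL) and with added amino acids and a lipid mixture. The fit that gave the tests also used the day 0, day 4 and day 7 wild type libraries, 21 in all.

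As background, a plasma cell is the terminal, antibody-secreting state of the B lineage. Blimp-1 (gene Prdm1), IRF4 and XBP1 are the transcription factors that drive it, and it expands the endoplasmic reticulum (ER) to fold and export immunoglobulin. The constant region of the heavy chain sets the antibody class, which switches from IgM to IgG, IgE or IgA under the direction of the activating signal and of cytokines. LPS is known to direct switching to IgG3 and IgG2b, and IL-4 to IgG1 and IgE.

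Recovered read totals of the 6 libraries ran from 20.38 M to 28.08 M. Expression is given as the deposited log2 variance-stabilised value, on which a gene without reads stands at 3.04. Prdm1, Irf4, Xbp1 and Jchain were abundant in all 6 libraries, with a lowest value of 12.15 for Prdm1, 13.57 for Irf4, 14.78 for Xbp1 and 18.01 for Jchain. None of the 29 genes of the plasma cell list was without reads in all 6. The B cell factor Pax5 was also present in every library, between 10.61 and 11.62, so that a B cell transcript that plasma cells lose was still found beside those of plasma cells.

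The libraries were not equally free of other cells' transcripts. The mean value of 28 macrophage genes was 6.69, 10.90 and 8.24 in TLR replicates 1, 2 and 3, and 12.47, 12.28 and 9.52 in BCR replicates 1, 2 and 3. Expressed as RPM (reads per M recovered reads of the library) summed over the list, the levels were 132, 4430 and 593 in the TLR libraries and 20000, 23500 and 2130 in the BCR libraries. The BCR replicates 1 and 2 stood highest, and the groups overlapped because TLR replicate 2 exceeded BCR replicate 3. Lyz2, the lysozyme of macrophages, read 9.44, 14.92 and 12.08 against 16.66, 16.39 and 13.50, while Timd4, a marker of some resident macrophages, had no reads in any of the 6. The 14 neutrophil genes summed to 2.85, 87.0 and 4.56 RPM in the TLR libraries and to 2890, 3240 and 6.79 in the BCR libraries, far higher in BCR replicates 1 and 2 than in the other 4. Differences are therefore given as fitted and, beside them, with the macrophage score as a covariate and without BCR replicates 1 and 2, which leaves 1 BCR library that is assumed to vary like the other groups. In bulk RNA, fewer cells of a type and less RNA per cell cannot be told apart.

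**Figure D1:**
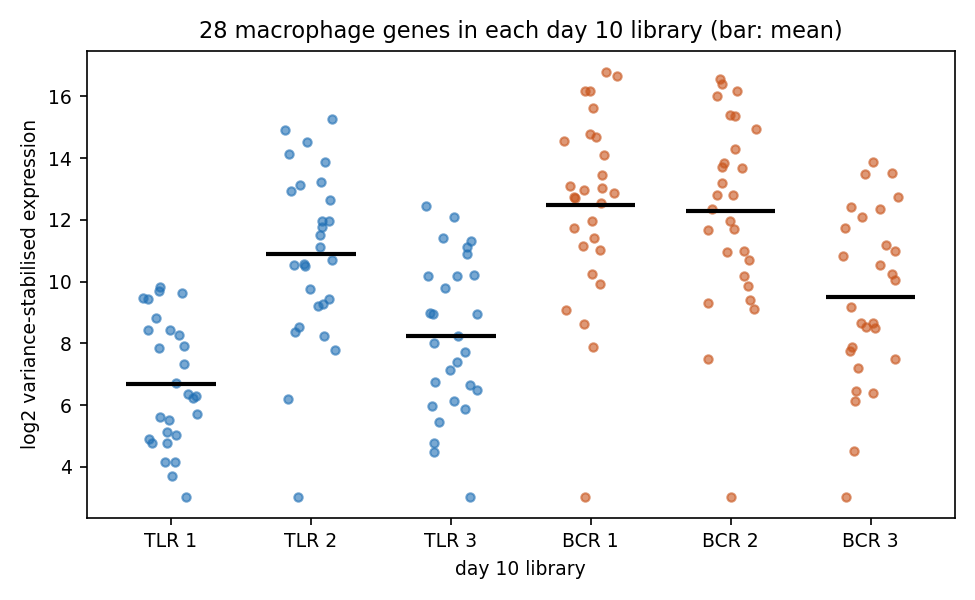
Log2 variance-stabilised expression of the 28 macrophage genes (points) in each day 10 library, with their mean as a bar; the horizontal spread of the points has no meaning. The mean is highest in BCR replicates 1 and 2 (12.47 and 12.28), and TLR replicate 2 (10.90) lies above BCR replicate 3 (9.52).

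Across 19497 genes, 837 were higher and 1966 lower in TLR than in BCR plasma cells at an adjusted p below 0.05 (limma with Benjamini-Hochberg adjustment), which is 4.29% and 10.1% of the genes tested. The median difference over all genes was -0.04. With each library centred on its own median the numbers were 1234 higher and 1169 lower, and the median of all genes moved to 0.17, so the excess of lower genes depends on how the libraries are scaled. Among the 7901 genes with a mean value of 8 or more over the day 10 libraries, 513 were higher and 573 lower. The 3 TLR values lay above all 3 BCR values for 1417 genes (7.27%) and below them for 1706 genes (8.75%).

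The calls rested on the spread pooled over all 7 groups. The median SD of a gene was 0.30 among the day 10 TLR libraries and 0.32 among the day 10 BCR libraries, against 0.12 among day 0 libraries, and with only the 6 day 10 libraries in the fit no gene passed (2399 had an unadjusted p below 0.05 and the smallest adjusted p was 0.11). When each group had its own weight, 511 genes passed, and limma-voom on the recovered reads gave 1691. With the macrophage score as covariate 162 genes passed (0.831%; 0.369% higher and 0.462% lower), and without BCR replicates 1 and 2 there were 241 (1.24%; 0.554% higher and 0.682% lower). Leaving out 1 library at a time gave 988, 3169 and 1499 calls without TLR replicates 1, 2 and 3, and 1245, 686 and 5524 without BCR replicates 1, 2 and 3. The plot of calls under each setting shows the same totals by direction.

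**Figure D2:**
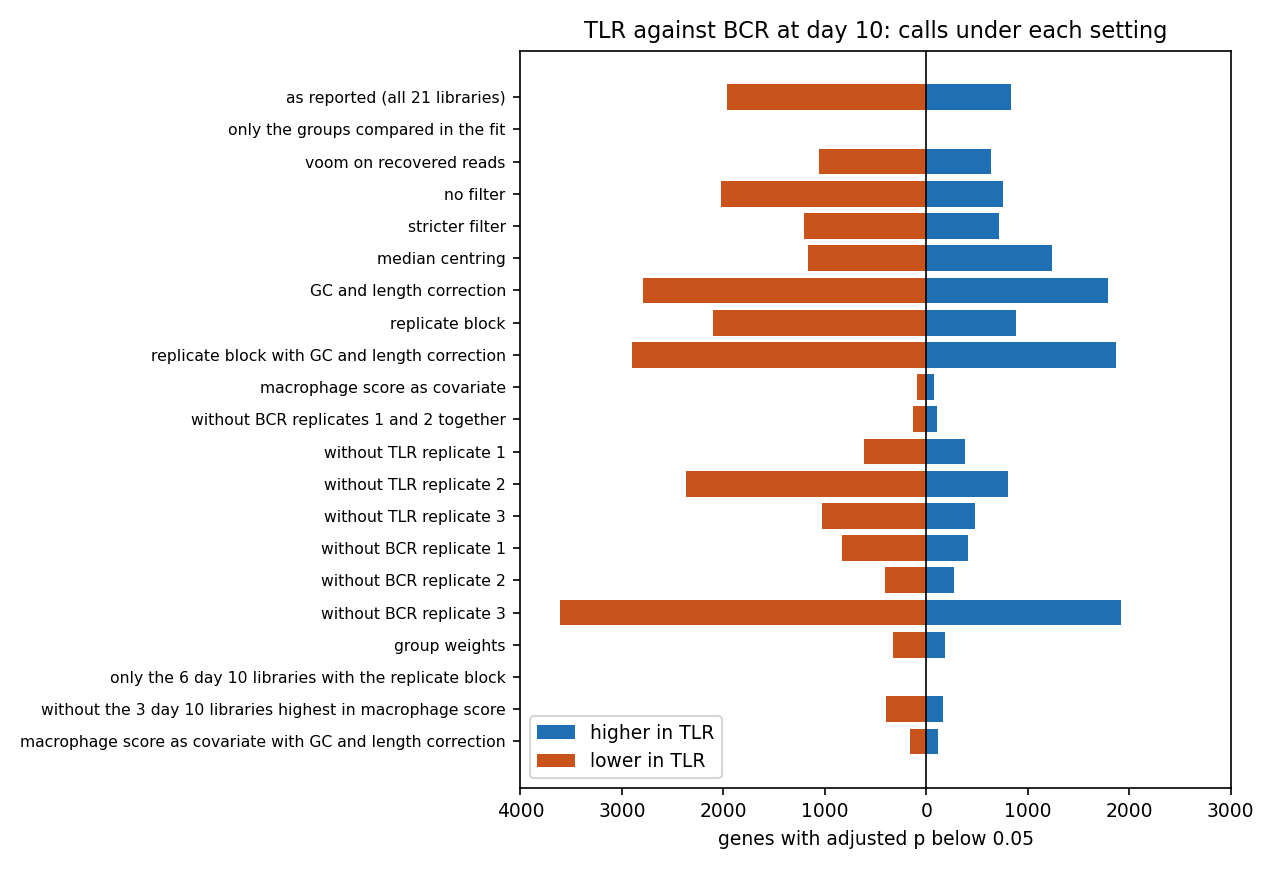
Number of genes with an adjusted p below 0.05 under each way of fitting the day 10 comparison, with genes higher in TLR to the right of 0 and genes lower in TLR to the left. The top bar has 837 higher and 1966 lower genes, no bar is visible for the 2 fits of the 6 day 10 libraries alone, and the longest bar is that without BCR replicate 3 (5524 genes).

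A smaller group of genes passed in the same direction in the fit of all libraries, with the macrophage score as covariate, and without BCR replicates 1 and 2. It held 54 genes higher in TLR cells and 60 lower. Of the 54, 26 were immunoglobulin V segments, 4 were heavy chain constant genes and 24 were other genes. Low expression was common among the 60 lower genes, of which 54 had a mean value under 8 in both groups, so that their differences rest on few reads. Restricted to protein-coding and constant genes with no overlap between groups and a mean of at least 8 in the higher group, 12 higher and 6 lower genes were left. All 18 also passed in voom, with the replicate block, after correction for GC content and length and without any single day 10 library. With group weights 17 of the 18 passed, the exception being Ighg2c (adjusted p = 0.058). The 18 were chosen in these same libraries, so these fits are no independent support. None of the 18 passed with only the 6 day 10 libraries in the fit.

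Heavy chain constant genes, which lie together on chromosome 12, held the 4 largest differences among these 12 higher genes. Ighg3 (chr12:113356224-113361232, GRCm38), the constant region of IgG3, read 19.75, 19.18 and 19.07 in TLR replicates 1 to 3 and 14.79, 13.32 and 14.80 in the BCR replicates. Every TLR library lay far above every BCR library, by 5.03 ± 0.40 (SE) on the log2 scale or 32.7-fold (adjusted p = 2.76e-06). Ighm (chr12:113418558-113422730), the constant region of unswitched IgM, read 21.05, 20.32 and 20.53 against 17.98, 17.40 and 18.40, a difference of 2.71 ± 0.33 (adjusted p = 0.000122). For both genes the groups did not overlap, and the difference was 4.82 for Ighg3 and 2.16 for Ighm with the macrophage score as covariate.

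Ighe (chr12:113269260-113273248), the constant region of IgE, read 11.99, 11.10 and 11.17 in TLR cells against 6.84, 6.57 and 8.58 in BCR cells. That is 2374, 1415 and 1044 recovered reads against 88, 80 and 269, and the difference was 4.09 ± 0.41 (adjusted p = 2.4e-05). Ighg2c (chr12:113285325-113288932) read 13.61, 13.23 and 12.76 against 11.88, 7.94 and 7.04, a difference of 4.25 ± 0.87 (adjusted p = 0.00562). The BCR libraries disagreed on Ighg2c: replicates 1, 2 and 3 held 3352, 233 and 85 recovered reads, against 7316, 6230 and 3157 in the TLR libraries, so before scaling for depth BCR replicate 1 exceeded TLR replicate 3. The IgG constant genes are alike in sequence, so reads may be divided between them with error.

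The most abundant heavy chain did not pass the test. Ighg1, the class to which IL-4 directs B cells, read 23.46, 22.96 and 22.88 against 22.12, 20.97 and 22.65 (1.19 ± 0.59, adjusted p = 0.192), and the TLR libraries all lay above the BCR libraries. Ighg2b overlapped between the groups (1.1 ± 0.39, adjusted p = 0.0699), as did Igha (0.73 ± 0.53, adjusted p = 0.395) and Ighd (-0.41 ± 0.28, adjusted p = 0.373). Of the light chains, Igkc was higher by 1.45 ± 0.36 (adjusted p = 0.0157) and Iglc2 by 1.16 ± 0.19 (adjusted p = 0.00123), but neither passed with the macrophage covariate (adjusted p = 0.455 and 0.0997) and Igkc did not pass without TLR replicate 1 or without BCR replicate 2 (at most adjusted p = 0.0938). Of the 12 genes of the constant region list, 6 were higher and none lower in TLR cells, against 4.29% and 10.1% of all genes. Their median difference was 1.17. Iglc4, tested but not on this list, passed in no fit that left out 1 day 10 library (differences from -0.21 to 0.38).

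**Figure D3:**
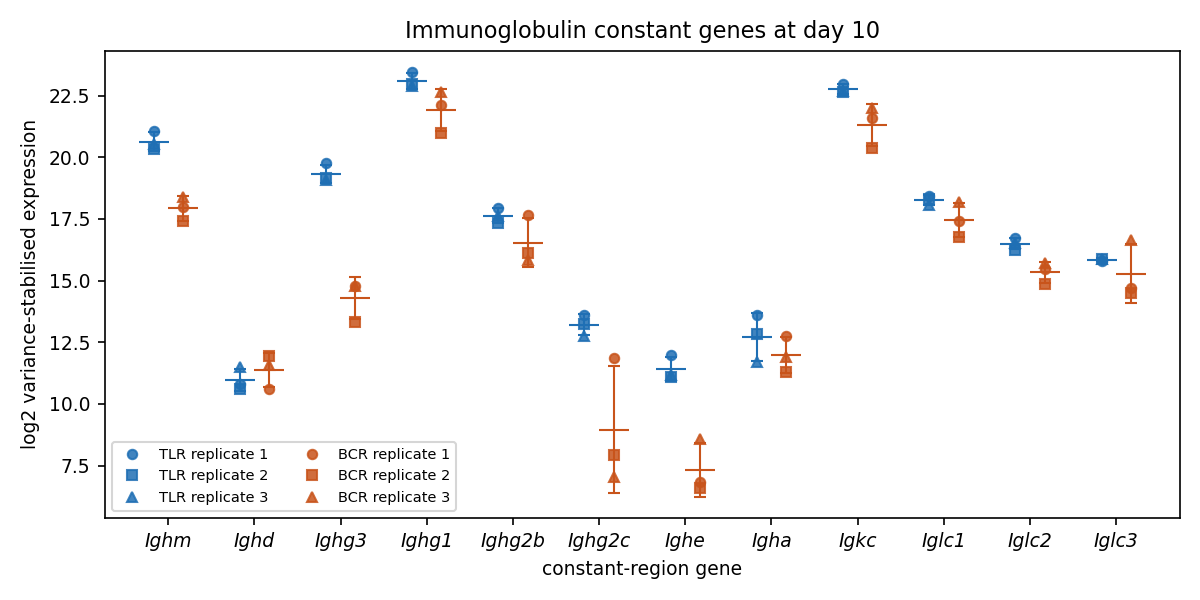
Log2 variance-stabilised expression of heavy and light chain constant genes in the 3 TLR (blue) and 3 BCR (orange) libraries of day 10, with a dash for the mean, bars for the SD and a symbol for each replicate. TLR points lie above all BCR points for Ighm, Ighg3, Ighg2c, Ighe and others, and the points of the groups overlap for Ighd, Ighg2b, Igha, Iglc1 and Iglc3.

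Per transcript length and as a share of all heavy chain constant transcripts within a library, the constant genes differed as follows. Whether a read came from a switched heavy chain transcript was not tested, and antibody protein was not measured. IgM made up 16.0, 14 and 16.6% in the TLR libraries and 5.66, 8.26 and 5.46% in the BCR libraries. IgG3 made up 5.93, 5.81 and 5.50% against 0.566, 0.445 and 0.411%. IgG1 was the main class in both, at 76.2, 78.4 and 75.8% against 89.5, 88.0 and 93.2%. For these 3 classes the TLR and BCR shares did not overlap, with IgM and IgG3 larger and IgG1 smaller in TLR cells. The IgG2b share was 1.63, 1.55 and 1.89% against 3.96, 2.93 and 0.797% and overlapped. The IgG2c share was 0.126, 0.141 and 0.104% against 0.113, 0.015 and 0.0025% and overlapped as well, since BCR replicate 1 exceeded TLR replicate 3. The IgE share was 0.0337, 0.0263 and 0.0283% against 0.00244, 0.00425 and 0.00652%, larger in TLR cells without overlap. The IgD share was 0.0158, 0.0204 and 0.0383% against 0.0412, 0.227 and 0.0593%, smaller in TLR cells without overlap. IgA shares overlapped, at 0.08, 0.0692 and 0.0313% against 0.132, 0.103 and 0.0527%. These shares are taken within the heavy chain transcripts, so reads of genes from other cell types do not enter them, and no test was run on them. Heavy chain constant genes as a whole took 31.0, 24.4 and 22.4% of all reads in TLR libraries and 17.1, 9.92 and 19.6% in BCR libraries, lowest in BCR replicate 2. The matching light chain shares were 18.5, 16.8 and 16.0% against 11.7, 6.47 and 12.9%.

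V segments, which encode the antigen-binding domain, followed the constant genes. Of 133 heavy chain V segments tested, 79 were higher and 2 lower in TLR cells, with a median difference of 1.46. Of 123 kappa V segments 79 were higher and none lower, with a median of 1.34. Among all genes tested, 4.29% were higher and 10.1% lower. With the macrophage covariate, 21 heavy and 8 kappa segments were higher and none lower, against 0.369% of all genes higher and 0.462% lower. Without BCR replicates 1 and 2, the median difference was 0.72 for heavy and 0.44 for kappa segments, against -0.02 for all genes. Some segments of both kinds were then lower in TLR cells, and that fit rests on 1 BCR library. Segments are near copies of each other, so the count of a single segment is uncertain, and their use also depends on which clones grew in a culture.

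Outside the immunoglobulin loci, 8 protein-coding genes were among the 12 that stayed higher. They included Cd93, a surface receptor of long-lived plasma cells. It read 13.42, 13.69 and 13.58 in TLR cells and 12.71, 12.68 and 10.71 in BCR cells, a difference of 1.53 ± 0.35 (adjusted p = 0.0103). BCR replicate 3, not the libraries richest in macrophage genes, was the low one, and the difference was 2.24 with the covariate, 2.85 without BCR replicates 1 and 2, and 0.87 without BCR replicate 3. Ly6a (Sca-1), a surface protein of stem cells and activated lymphocytes, read 12.44, 12.02 and 12.54 against 10.03, 10.21 and 10.49 (2.09 ± 0.21, adjusted p = 2.38e-05). Lef1, a nuclear partner of beta-catenin that acts early in the B lineage, read 8.96, 8.73 and 8.96 against 7.33, 6.79 and 7.75 (1.59 ± 0.22, adjusted p = 0.000373). None of these 3 genes overlapped between the groups.

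Tmem176a and Tmem176b, neighbouring genes of cation channel-like membrane proteins, were both higher. Tmem176a (chr6:48840919-48847071) read 13.94, 13.27 and 13.19 against 11.36, 10.53 and 11.70, a difference of 2.27 ± 0.26 (adjusted p = 7.48e-05). Tmem176b (chr6:48833818-48841496) differed by 2.45 ± 0.36 (adjusted p = 0.000556), and missed the threshold only without BCR replicates 1 and 2 among the 3 fits (adjusted p = 0.0616). The models of these genes overlap on opposite strands, and the strand setting of the counting is not given in the sources used here, so reads of the shared stretch cannot be assigned with certainty.

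Slc7a3, a transporter of cationic amino acids, read 9.21, 9.03 and 9.20 against 7.10, 6.37 and 7.88 (2.03 ± 0.28, adjusted p = 0.000337). Arpp21, a cAMP-regulated RNA-binding phosphoprotein, read 10.22, 9.97 and 10.03 against 8.01, 7.24 and 8.69 (2.09 ± 0.29, adjusted p = 0.000343). In both, the TLR replicates were tightly grouped and the BCR replicates were lower. Armcx2 was higher by 1.20 ± 0.14 (adjusted p = 8.3e-05), again without overlap. Slpi, a secreted protease inhibitor on the plasma cell list, read 15.82, 14.45 and 14.34 against 12.08, 10.97 and 11.63 (3.31 ± 0.52, adjusted p = 0.000934) and missed the threshold with the covariate (2.89, adjusted p = 0.0615).

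Of the 6 lower genes that passed all 3 fits without overlap and with a mean of at least 8 in BCR cells, Tmem26 had the most negative difference. It is a membrane protein better known from fat tissue, and it read 3.96, 5.94 and 5.19 in TLR cells and 9.60, 10.04 and 8.44 in BCR cells, a difference of -4.33 ± 0.42 (adjusted p = 1.95e-05). This corresponds to 2, 30 and 10 recovered reads against 678, 1053 and 243, so the TLR libraries were near the floor and all BCR libraries, including replicate 3, were well above it. The lowest value of each group was in the library with its lowest macrophage score, TLR replicate 1 and BCR replicate 3, and the difference was -3.08 with the score as covariate. At day 4, where the scores lay between 4.82 and 5.39, Tmem26 had a mean of 9.60 in TLR and 10.19 in BCR cells. At day 7 its means were 6.00 and 6.93. The source of the transcript was not tested.

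Il9r, the receptor of the T cell cytokine IL-9, read 6.87, 6.56 and 6.46 against 8.79, 9.99 and 8.55, a difference of -2.48 ± 0.27 (adjusted p = 4.32e-05). Dmxl2, a regulator of the vesicular proton pump, read 7.27, 8.71 and 7.98 against 10.63, 10.68 and 10.19 (-2.51 ± 0.27, adjusted p = 3.38e-05). Dlg4, a scaffold protein best known at synapses, differed by -1.92 ± 0.22 (adjusted p = 7.98e-05) and Lmo7, an actin and adhesion scaffold, by -1.51 ± 0.27 (adjusted p = 0.0024). The TLR and BCR values of these 4 genes did not overlap.

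Ahr, the aryl hydrocarbon receptor, was the last of the 6. This ligand-activated transcription factor binds DNA with its partner Arnt at sites with the core GCGTG and is known to induce its own repressor, Ahrr. Ahr read 6.59, 6.86 and 7.00 in TLR cells and 7.75, 8.02 and 8.41 in BCR cells, a difference of -1.24 ± 0.21 (adjusted p = 0.00151). Ahrr, named here after its values were seen, read 5.62, 6.15 and 6.35 against 7.62, 7.73 and 7.52 (-1.58 ± 0.23, adjusted p = 0.000469), and both genes also passed with the covariate and without BCR replicates 1 and 2. Other genes known to respond to Ahr gave a mixed picture: Nqo1 differed by -1.40 ± 0.22 (adjusted p = 0.000815, but 0.0698 with the covariate), while Cyp1a1 (-0.57, adjusted p = 0.132), Cyp1b1 (-0.53, adjusted p = 0.389) and Tiparp (0.14, adjusted p = 0.802) did not pass. Arnt stood at 10.61 in TLR and 10.54 in BCR cells. The 250 bases before the start of Ahrr (chr13:74292332-74292581, minus strand, RefSeq on GRCm38.p6) are shown because Ahr and Ahrr differed together, with the matches to GCGTG in capitals.
Ahrr: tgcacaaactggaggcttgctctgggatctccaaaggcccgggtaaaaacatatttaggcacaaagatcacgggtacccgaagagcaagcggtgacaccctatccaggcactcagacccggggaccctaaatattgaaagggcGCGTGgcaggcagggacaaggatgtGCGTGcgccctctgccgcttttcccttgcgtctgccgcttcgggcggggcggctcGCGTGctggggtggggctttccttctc
The window holds 3 matches on the strand shown and none on the other. At least 1 match on either strand was found in 28.2% of 32851 RefSeq windows of this length, and as many as 3 in 2.67%. A match describes the letters only, and binding was not measured.

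The same 18 genes were compared at the earlier days in the same fit, which called 3.77% of all genes higher and 2.5% lower at day 7 (6.27% in all), and 4.3% higher and 3.27% lower at day 4 (7.57% in all). At day 7, 16 of the 18 were called in the same direction, the exceptions being Tmem26 (-0.92, adjusted p = 0.228) and Ighg2c (1.85, adjusted p = 0.25). At day 4, 11 were called the same way and 1, Lmo7, the opposite way: it was higher in TLR cells by 1.77 ± 0.27 at day 4 and lower at days 7 (-1.72 ± 0.27) and 10. The Ighg3 difference was 2.78 at day 4, 4.07 at day 7 and 5.03 at day 10, and that of Ighm was 0.66 (adjusted p = 0.305), 1.64 and 2.71. Ighe stood at 4.26, 4.02 and 4.09. Arpp21 (0.20, adjusted p = 0.827), Il9r (-0.38, adjusted p = 0.541) and Dlg4 (-0.22, adjusted p = 0.722) did not pass at day 4 but passed at day 7.

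**Figure D4:**
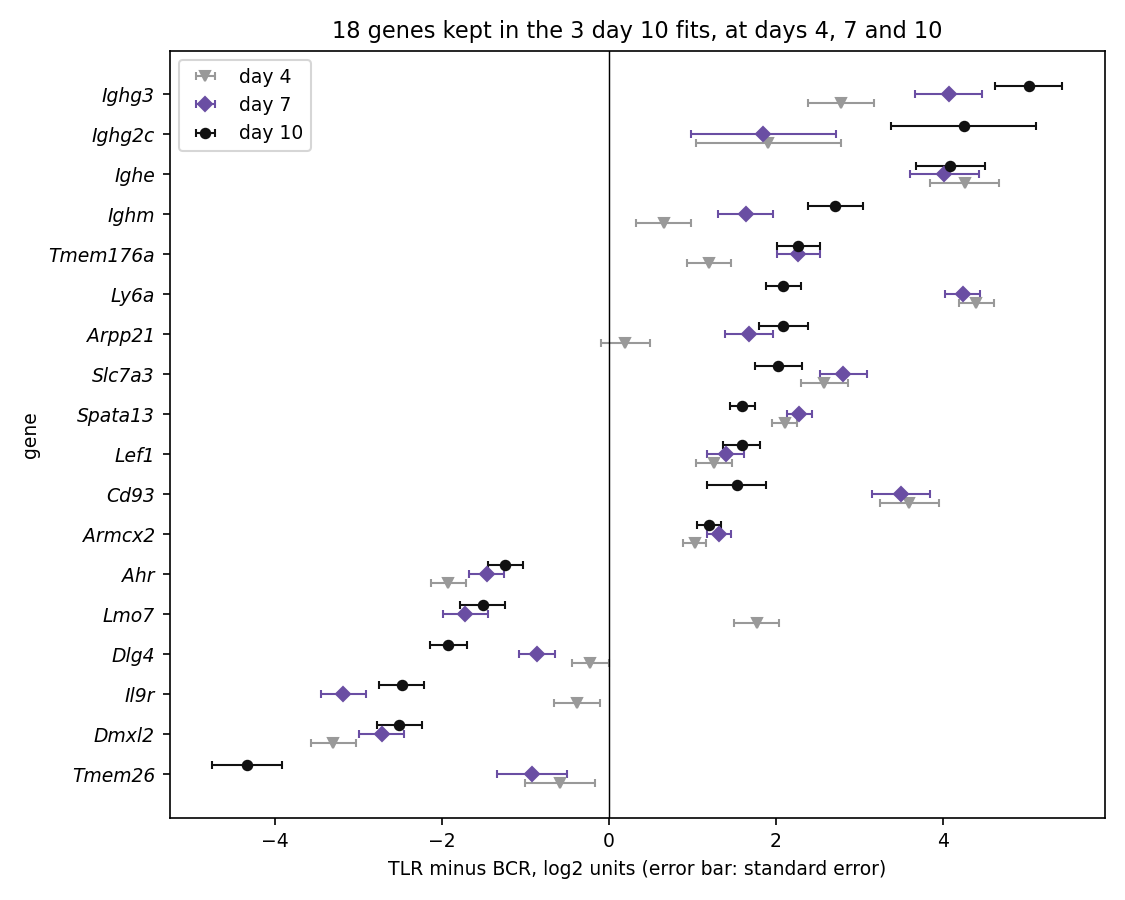
TLR minus BCR difference (log2 units, horizontal axis) with its SE for the 18 genes that passed in all 3 day 10 fits, at day 4 (grey triangles), day 7 (purple diamonds) and day 10 (black circles). Lmo7 lies to the right of 0 at day 4 and to the left at days 7 and 10, and Ly6a and Cd93 have a smaller difference at day 10 than at day 7, which passed the test of the change for Ly6a and not for Cd93.

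Of the 837 genes higher at day 10, 329 (39.3%) were also called higher at day 7, which is 44.8% of the 735 called higher then. Of the 1966 lower genes, 252 (12.8%) were also called lower at day 7, which is 51.6% of the 488. In the set that passed all 3 fits, 50 of 54 higher and 33 of 60 lower genes were called in the same direction at day 7. The change in the difference was also tested. From day 7 to day 10 this test called 13 genes (0.0667%), all toward a lower TLR minus BCR difference. From day 4 to day 10 it called 737 (3.78%), of which 234 moved up (1.2%) and 503 down (2.58%). With each library centred on its median this split turned round, to 387 up and 212 down.

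Ly6a was among the 13. Its TLR minus BCR difference went from 4.24 at day 7 to 2.09 at day 10, a change of -2.15 ± 0.29 (adjusted p = 0.00447). The difference of Cd28, a costimulatory receptor that supports plasma cell survival, went from 2.67 at day 7 to -1.34 at day 10 (change -4.01 ± 0.70, adjusted p = 0.038). At day 10, Cd28 read 7.81, 9.92 and 8.65 in TLR and 11.05, 10.59 and 8.75 in BCR cells, high where the macrophage score was high. The day 10 difference of Cd28 did not itself pass (adjusted p = 0.0785, limma), and the groups overlapped. That difference was 0.15 with the macrophage score as covariate and 0.04 without BCR replicates 1 and 2. Cd36, a scavenger receptor of plasma cells and macrophages, changed by -4.31 ± 0.78 (adjusted p = 0.0493) and read 10.95, 13.13 and 12.15 against 14.61, 15.12 and 12.69. For both genes the change remained called with the macrophage score as covariate, at -3.40 for Cd28 and -3.69 for Cd36, and the part of macrophages in the result was not tested further. Neither change passed without BCR replicates 1 and 2 (-2.63 for Cd28 and -2.86 for Cd36) or without TLR replicate 1, TLR replicate 3, BCR replicate 1 or BCR replicate 2 alone (adjusted p from 0.0914 to 0.123 for Cd28 and from 0.118 to 0.128 for Cd36), and that of Cd36 did not pass with the replicate block (adjusted p = 0.0813). None of the 3 passed with the libraries centred on their medians (adjusted p = 0.0656 for Cd28, 0.0685 for Cd36 and 0.0805 for Ly6a).

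Of 29 plasma cell identity genes, 12 were higher in TLR cells and none lower, and 17 did not pass, against 4.29% of all genes higher. Their median difference was 0.77. Xbp1 read 16.52, 16.53 and 16.75 against 15.44, 14.78 and 16.44 (1.05 ± 0.28, adjusted p = 0.0207) and Irf4 15.37, 15.44 and 15.39 against 14.11, 13.57 and 15.27 (1.08 ± 0.30, adjusted p = 0.0242). In both, BCR replicate 3 was close to the TLR libraries and BCR replicates 1 and 2 were lower. Prdm1 overlapped (0.60 ± 0.31, adjusted p = 0.214), as did the surface marker Sdc1 (0.62 ± 0.32, adjusted p = 0.218). With the covariate 1 gene of the list, Cd93, was higher, and without BCR replicates 1 and 2 there were 2 higher and 1 lower. Xbp1 (adjusted p = 0.693) and Irf4 (adjusted p = 0.713) did not pass with the covariate, nor without TLR replicate 1, TLR replicate 3, BCR replicate 1 or BCR replicate 2 alone (at most adjusted p = 0.138 for Xbp1 and 0.165 for Irf4). Without single libraries the count ran from 4 higher genes (without BCR replicate 2) to 19 (without BCR replicate 3). Of all 19497 genes, 275 and 1917 were higher in those fits.

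Of 32 genes of ER folding, export and degradation, 13 were higher and none lower, against 4.29% and 10.1% of all genes. Their median difference was 0.58. Examples were Herpud1, of ER-associated degradation (1.33 ± 0.23, adjusted p = 0.00167), its partner Sel1l (1.07 ± 0.22, adjusted p = 0.00639) and the chaperone cofactor Sdf2l1 (0.96 ± 0.20, adjusted p = 0.00644). Herpud1 read 13.94, 13.41 and 13.48 against 12.40, 11.65 and 12.79, without overlap. No member passed with the covariate or without BCR replicates 1 and 2, where the medians were 0.31 and 0.11. The count ran from 3 without TLR replicate 1 to 26 without BCR replicate 3. Of all 19497 genes, 378 and 1917 were higher in those fits.

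The next 2 lists are also given against 4.29% of all genes higher and 10.1% lower. Of 21 tested genes in the response of ATF4 and CHOP to amino acid shortage and ER stress, 7 were higher and 1 lower, with a median of 0.82. They included the amino acid transporter gene Slc7a5 (1.27 ± 0.37, adjusted p = 0.0303) and Chac1, which degrades glutathione (1.57 ± 0.44, adjusted p = 0.0255). With the covariate, and without BCR replicates 1 and 2, 1 gene of this list was left, Slc7a3. Slc7a5 did not pass without TLR replicate 1, BCR replicate 1 or BCR replicate 2 (at most adjusted p = 0.204), nor Chac1 without TLR replicate 1 or BCR replicate 2 (at most 0.167). The count of higher genes ran from 3 without TLR replicate 1 to 11 without BCR replicate 3. Those fits called 378 and 1917 of all 19497 genes higher. Of 26 transcription factors of B cell fate, 5 were higher and 1 lower, among them Zbtb32, a repressor that limits plasma cell responses, which read 9.34, 8.07 and 8.55 against 7.05, 7.09 and 6.43 (1.80 ± 0.30, adjusted p = 0.00157). It passed without BCR replicates 1 and 2 and missed the threshold with the covariate (adjusted p = 0.0829). The lower one was Id2, an inhibitor of E proteins (-2.27 ± 0.57, adjusted p = 0.0157), which read 7.30, 9.91 and 8.29 against 11.60, 11.58 and 9.12, high in the libraries with a high macrophage score. Id2 did not pass without TLR replicate 1, TLR replicate 3, BCR replicate 1 or BCR replicate 2 (at most adjusted p = 0.107). The fate factor list had 1 higher gene without TLR replicate 1 and none with the covariate.

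Cell division genes were lower in TLR cells. Of 30 members, 23 were lower and none higher, against 10.1% of all genes, with a median of -0.89. Mki67, the proliferation antigen, read 12.57, 12.95 and 12.84 against 13.28, 13.58 and 13.89, without overlap (-0.80 ± 0.24, adjusted p = 0.0335). The kinetochore motor Cenpe differed by -1.43 ± 0.30 (adjusted p = 0.0063), the checkpoint kinase Bub1 by -1.41 ± 0.32 (adjusted p = 0.0102) and the spindle factor Tpx2 by -1.26 ± 0.25 (adjusted p = 0.00463). Tpx2 read 8.41, 9.59 and 9.33 against 10.61, 10.67 and 9.82, highest in the libraries with most macrophage transcripts, whereas Mki67 was highest in BCR replicate 3. None of the 30 passed with the covariate (median -0.39) or without BCR replicates 1 and 2 (median -0.35). With each library centred on its median 11 were lower, and without TLR replicate 1 the count was 6. Those fits called 1169 and 610 of all 19497 genes lower. Mki67 did not pass without TLR replicate 1, TLR replicate 3, BCR replicate 2 or BCR replicate 3 (at most adjusted p = 0.135), nor Bub1 without TLR replicate 1 or BCR replicate 2 (at most 0.0706).

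The pathways whose stimulation set the cultures apart are given against 4.29% of all genes higher and 10.1% lower (14.4% in all). Of 24 Toll-like receptor pathway genes 3 were higher and 1 lower, with a median of -0.04, the same as that of all genes. Irf7, which turns on interferon genes, was higher by 1.34 ± 0.33 (adjusted p = 0.0154) and the adaptor Tirap by 0.81 ± 0.20 (adjusted p = 0.0138), while Irak1bp1 was lower at -1.20 ± 0.30 (adjusted p = 0.0153). Of 25 antigen receptor pathway genes 1 was higher, the adaptor Blnk (0.54 ± 0.14, adjusted p = 0.0202), and none lower (1 with the replicate block). Of 22 NF-kB subunits and targets 1 was lower, Cd83 (-0.79 ± 0.25, adjusted p = 0.0415), and none higher. None of the genes of these 3 lists passed with the covariate, and without BCR replicate 2 none of the 5 genes named did (adjusted p of 0.111 for Irf7, 0.0996 for Tirap, 0.102 for Irak1bp1, 0.131 for Blnk and 0.221 for Cd83). Without BCR replicate 3, 7 genes of the Toll-like receptor list were lower, in a fit that called 3607 of all 19497 genes lower.

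The lists of this paragraph are given against the same 4.29% of all genes higher and 10.1% lower. Of 24 interferon-stimulated genes 4 were higher and none lower, with a median of 0.42. Isg20, an RNA exonuclease, was higher by 1.32 ± 0.41 (adjusted p = 0.0389) and Zbp1, a sensor of nucleic acids, by 0.88 ± 0.27 (adjusted p = 0.0385). With the covariate 1 was higher and without BCR replicates 1 and 2 there were 5, with medians of 0.80 and 0.94, but no gene passed in all 3 fits. The count was 0 without TLR replicate 1, and Isg20 and Zbp1 did not pass without BCR replicate 2 either (adjusted p = 0.239 and 0.252). None of 14 genes of antigen presentation on MHC class II passed in either direction (median -0.24), and none of 22 genes of ribosome biogenesis did (median -0.08). Of 25 mature B cell genes 2 were higher and 1 lower, none passed with the covariate or without BCR replicates 1 and 2, and the higher count ran from 0 without TLR replicate 1 to 5 without BCR replicate 3. Without TLR replicate 1 and without BCR replicate 3, 378 and 1917 of all 19497 genes were higher. Bach2, which holds back plasma cell fate, differed by -0.50 ± 0.20 (adjusted p = 0.103).

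**Figure D5:**
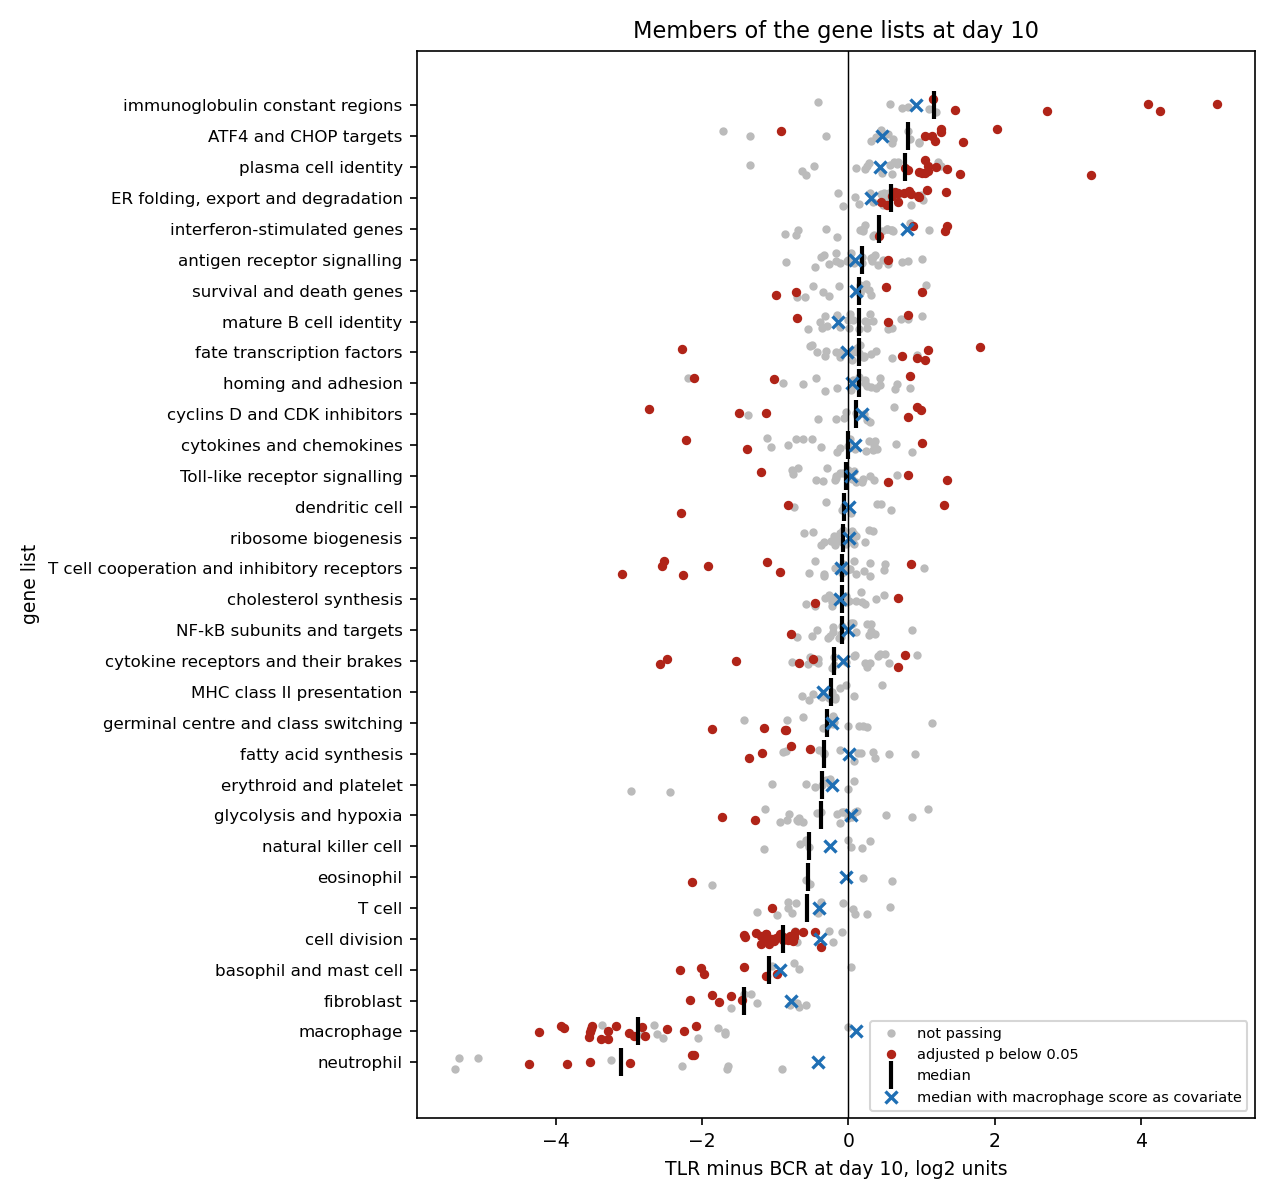
TLR minus BCR difference at day 10 for the members of each gene list (points, red where the adjusted p is below 0.05), with the list median as a black bar and the median with the macrophage score as covariate as a blue cross. The constant region list has the highest median (1.17), and the macrophage and neutrophil lists have the lowest (-2.88 and -3.11). Their crosses lie at 0.10 and -0.42, and the score was built from the macrophage genes themselves.

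Genes that mark other cell types, Flt3 apart, were lower in the TLR group or did not pass, against 10.1% of all genes lower. Of 28 macrophage genes 18 were lower and none higher (median -2.88), and none passed with the covariate, which was built from them, or without BCR replicates 1 and 2. Spp1, the secreted phosphoprotein osteopontin, read 7.86, 14.51 and 10.89 against 16.18, 16.00 and 12.73 (-3.88 ± 1.1, adjusted p = 0.0272), a spread among the TLR libraries wider than the difference, and it did not pass without TLR replicate 1, TLR replicate 3, BCR replicate 1 or BCR replicate 2 (at most adjusted p = 0.148). The macrophage count ran from 1 without BCR replicate 2 to 27 without TLR replicate 2, where 411 and 2366 of all 19497 genes were lower. Of 14 neutrophil genes 6 were lower, and Ltf read 5.98, 8.79 and 5.65 against 14.22, 12.87 and 6.41. The neutrophil count ran from 0 without TLR replicate 1 to 14 without BCR replicate 3, and it was 0 with voom and with group weights. In the same order, these fits called 610, 3607, 1054 and 331 of all 19497 genes lower. Arg1, Tgm2, Kitl, Cd5l and Serpinb9b, which with Tmem26 had the most negative differences among protein-coding genes called without overlap and with a mean of 8 or more in BCR cells, did not pass with the covariate or without BCR replicates 1 and 2, and for example Arg1 read 4.46, 5.30 and 4.07 against 8.71, 11.32 and 6.15.

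The 12 erythroid and platelet genes summed to 2.28, 49.9 and 3.04 RPM in TLR libraries and to 314, 211 and 6.33 RPM in BCR libraries, high in the same BCR replicates 1 and 2, and none of the 11 tested passed. Transcripts of the following cell types were scarcer, and their lower calls stand against 10.1% of all genes. The 16 fibroblast genes, a check on the feeder cells, summed to between 3.99 and 94.4 RPM, the highest in BCR replicate 2. Of the 13 tested, 5 were lower in TLR cells (9 with the replicate number as a block), among them Sparc (-2.17 ± 0.37, adjusted p = 0.00181), and none passed with the covariate. The 12 basophil and mast cell genes summed to 2.6, 4.25 and 2.4 RPM in TLR and 16.7, 22.5 and 11 in BCR libraries, without overlap. Of their 10 tested, 6 were lower, and Tpsab1, a mast cell tryptase, read 3.70, 3.66 and 4.07 against 6.12, 6.39 and 5.81 (-2.30 ± 0.28, adjusted p = 0.000131) and also passed in the other 2 fits. The 14 T cell genes summed to at most 32.9 RPM, and 1 of them (3 with the replicate block), Lck, was lower (-1.04 ± 0.32, adjusted p = 0.0359; 0.167 without BCR replicate 2). Flt3, a cytokine receptor of dendritic cells and early B lineage cells, was the 1 dendritic cell marker that was higher, with 7.86, 7.46 and 7.78 against 6.37, 6.55 and 6.29 (1.3 ± 0.17, adjusted p = 0.000185). It stood 5.93 higher in TLR cells at day 4. The part of these cell types in the results above was not tested beyond the fits given.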

How the data were processed

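RNA-seq values came from 1 table of 28196 genes in 21 wild type libraries (TLR and BCR cultures at days 4, 7 and 10 and B cells at day 0). The authors deposited log2 values of 1 library a column, per the file headers; the file's name calls them RSEM gene values after variance stabilisation (VST). Per the submitters' processing notes the tools included STAR 2.6.0c, RSEM 1.3.0 and DESeq2 1.22.2; their settings are not stated in the labels. The transformation was inverted to give reads (under 20 reads, 95.8 to 100.0% of values were whole within 0.1, against 20% by chance), which served for totals, shares and voom.

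Genes at least 1 above the floor of 3.04 in at least 3 libraries were tested (19497; Cnksr3, with a value below the floor, was left out) in limma 3.58.1 (R 4.3.3), with group means of 21 libraries, 14 residual degrees of freedom, empirical Bayes with trend, two-sided, Benjamini-Hochberg, called below 0.05. Figures used matplotlib 3.10.9 in Python 3.11.15. Coordinates and types came from GENCODE M21 (GRCm38), to which 27478 identifiers matched. No pair of libraries within a day 10 group was a copy, and other pairs were not compared.

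The groups, lists and named genes were chosen with earlier results of these data known. Named were the 6 genes with the largest and the 6 with the smallest difference among protein-coding and constant genes that passed without overlap and reached a mean of 8, up to 12 each way that also passed in the 2 macrophage-aware fits, fixed marker genes, 3 of each list (2 where none passed), and up to 4 each way for the day 7 to day 10 change. The covariate was the mean value of 28 macrophage genes per library. The main fit did not pair the samples, and what the replicate number marks is not stated in the labels. Pairing by that number, the replicate block, was run as an alternative. The deviations of same-numbered TLR and BCR day 10 libraries correlated at 0.44, 0.51 and 0.45 over 7733 genes. Group weights, the 6 libraries with the block, the covariate with GC correction and the fit without the 3 libraries highest in macrophage score were added after the data were seen.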

Additional observations from a re-analysis of the deposited data

Results flagged for a closer look

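The TLR minus BCR difference changed between day 7 and day 10 for 4 named genes by a test of the change itself. The change was -4.31 for Cd36, -4.01 for Cd28, -3.41 for Tmem26 and -2.15 for Ly6a (adjusted p = 0.0493, 0.038, 0.038 and 0.00447, limma). Mean values at day 7 were 11.77 in TLR and 9.52 in BCR cells for Cd36, 10.70 and 8.03 for Cd28, 6.00 and 6.93 for Tmem26, and 13.36 and 9.12 for Ly6a. With the macrophage score as covariate the changes were -3.69, -3.40, -2.90 and -2.28, and all 4 passed. Without BCR replicates 1 and 2 the changes of Cd36 (-2.86), Cd28 (-2.63) and Tmem26 (-2.49) did not pass, and that of Tmem26 also did not pass without TLR replicate 1, TLR replicate 3, BCR replicate 1 or BCR replicate 2 (adjusted p from 0.0629 to 0.123). With voom the changes of Tmem26, Cd28 and Cd36 did not pass (adjusted p = 0.16, 0.0595 and 0.0638), and with median centring none of the 4 did (0.0685 for Tmem26). With group weights none of the 4 passed (adjusted p = 0.0632 for Cd36 and 0.0549 for the others). The share of Ly6a, Cd28, Cd36 and Tmem26 transcripts that macrophages contribute was not tested.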

How the results depend on the processing

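The count of genes called at day 10 (2803) was 0 with only the 6 libraries in the fit, 0 with those 6 and the replicate block (3479 at an unadjusted p below 0.05), 1691 with voom, 4590 after GC and length correction, 4763 with the replicate block and that correction, 162 with the macrophage covariate, 278 with the covariate and GC correction, 241 without BCR replicates 1 and 2, 561 without the 3 libraries highest in macrophage score, 511 with group weights, and 686 to 5524 with 1 library left out. The replicate block alone gave 2990 calls, and of the 116 named genes it changed no call except those of Jchain and Lyz2, which then passed; the day 7 to day 10 change of Cd36 no longer passed with it (adjusted p = 0.0813). The change from day 7 to day 10 (13) was 0 with only the groups compared, 5 with voom, 2 with median centring, 22 after GC correction, 47 with the covariate, 97 with covariate and GC correction, 6 without BCR replicates 1 and 2, 28 without the 3 libraries, 1 with group weights, and 5 to 1244 with 1 library left out. The change from day 4 to day 10 (737) was 158, 480, 2097 and 2209 (groups compared only, voom, GC correction, replicate block with GC correction), 340 with the covariate, 314 without BCR replicates 1 and 2, 460 without the 3 libraries, 414 with group weights, and 418 to 3512 with 1 library left out; median centring gave 599, with 387 up and 212 down. Some named genes called lower at day 10 turned positive. Without BCR replicates 1 and 2 these were Camp 0.50, Cdkn1a 0.08, Ltf 0.40, Mpo 0.22 and Pgam1 0.03. Mpo also did so without the 3 libraries (0.33), and Lair1 with the covariate (0.26) and with covariate and GC correction (0.28). Cd28, lower at day 10 but not called, turned to 0.04 without BCR replicates 1 and 2 and to 0.15 with the covariate. The cause was not tested. Values near the floor of 3.04 rest on few reads and are compressed.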
